A study of Homo sapiens with 6 samples.

Results

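The genes described here are 10 early response transcription factor genes: the AP-1 genes FOS, FOSB, FOSL1, FOSL2, JUN, JUNB and JUND, the related gene ATF3, and the zinc finger genes EGR1 and KLF6. They were chosen by symbol, and each matched 1 of the 58735 genes of the deposited count table. All 10 passed the filter on low counts, which left 14844 genes for testing. RNA-seq was made from Mum-2b cells, a line established from human uveal melanoma, in 3 libraries with NELFCD knocked down by a short hairpin RNA (shRNA) and in 3 control libraries labelled NC, of genotype WT. The library titles name a single hairpin, so a change caused by loss of NELFCD and one caused by off-target silencing cannot be told apart. Whether the control cells carried a hairpin was not given in the sources used here. Neither was whether the replicates were separate cultures, so p-values measure the spread between these libraries, which may be technical.

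AP-1 is a dimer of basic leucine zipper proteins. JUN proteins pair with each other or with FOS proteins, while FOS proteins need a partner of another family, and ATF3 can pair with JUN proteins. EGR1 and KLF6 bind GC-rich sites through zinc fingers. These genes are known for rapid, short-lived transcription after growth factors or stress. Several of them, FOS and JUNB among them, are textbook cases of RNA polymerase II that pauses soon after the start site, and NELFCD encodes part of the NELF complex (negative elongation factor) that keeps the polymerase there. The libraries measure transcript levels, and pausing itself was not measured. In bulk RNA, fewer cells that express a gene and less of its RNA per cell cannot be told apart.

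Library totals ranged from 14600333 to 16656630 counts in the knockdown and from 14306733 to 16106948 counts in the control. NELFCD was at 20.7, 37.4 and 40.3 CPM (counts scaled to a common library size) in knockdown replicates 1 to 3, against 65.5, 88.3 and 83.5 CPM in control replicates 1 to 3, so the groups did not overlap. The exact two-sided permutation p for NELFCD was 0.1, the smallest that 3 against 3 libraries allow. Replicate 1 of both groups stood apart from replicates 2 and 3: 61.8% of tested genes differed between them. For this reason each change is given from edgeR's quasi-likelihood fit blocked on replicate number, beside the fit without it, in which 0 of 14844 genes passed an adjusted p of 0.05 and 954 had an unadjusted p under 0.05. Melanocyte markers were low, at a summed 1.72 to 4.13 FPKM (fragments scaled to gene length and library size) over 8 markers in the knockdown and 1.69 to 2.48 FPKM in the control, and SOX10, TYR, DCT and S100B had at most 8 counts in any library. Of the 6 immune and 6 fibroblast markers, each stayed under 1 FPKM in every library. The epithelial keratins KRT8 and KRT18 and the vascular cadherin CDH5 were the markers of other cell types above 5 FPKM in every library. The 6 endothelial markers summed to 8.46 to 9.49 FPKM in the knockdown and 20.7 to 26.5 FPKM in the control, and the 6 epithelial markers to 211 to 305 FPKM in the knockdown and 136 to 262 FPKM in the control, and their part in the results was not tested.

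FOSL1 was by far the most abundant of the 10 transcripts per length. FOSL1, which encodes the FOS-related protein FRA-1, averaged 489 ± 65.8 FPKM in the knockdown and 471 ± 74.3 FPKM in the control (SD, n = 3 each), and 99.7% of the 12160 tested protein-coding genes had a lower mean. JUN followed at a mean of 88.3 FPKM over the 6 libraries, then EGR1 at 85.2, JUNB at 58.9, KLF6 at 35.8, JUND at 22.04 and FOSL2 at 21.5 FPKM. FOS (4.73 FPKM), ATF3 (3.61 FPKM) and FOSB (0.937 FPKM) were the lowest. FOSL1 lay above the next gene in all 6 libraries without overlap of their ranges, as did FOSL2 above FOS and ATF3 above FOSB. The ranges of all other neighbours in this order overlapped. JUN exceeded EGR1 in 4 of 6 libraries, EGR1 exceeded JUNB in 2 and JUNB exceeded KLF6 in 4. KLF6 exceeded JUND in 5, JUND exceeded FOSL2 in 2 and FOS exceeded ATF3 in 5. EGR1 was at 172 FPKM in knockdown replicate 1 and 266 FPKM in control replicate 1, against 12.6 to 24.3 FPKM in replicates 2 and 3. FOSB was counted least, with 69 to 98 counts per library, and the exact 95% Poisson interval of its lowest count was 53.7 to 87.3, which covers counting error only.

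**Figure D1:**
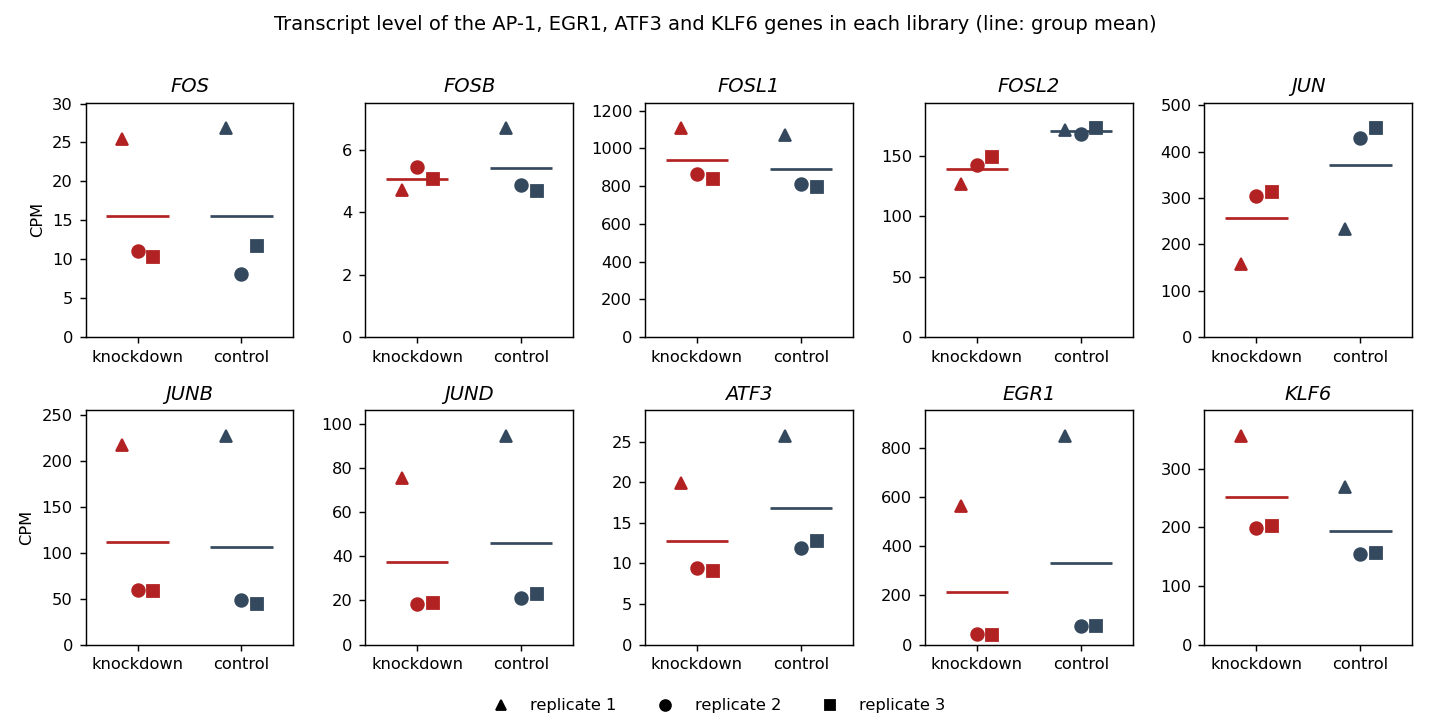
CPM of each of the 10 genes (vertical axis, from 0) in the 3 knockdown libraries (red, left) and the 3 control libraries (dark blue, right), with the replicate number as the marker shape and the group mean as a line. FOSL2 is the gene whose groups do not overlap, and replicate 1 stands far above replicates 2 and 3 for EGR1, JUNB and JUND and below them for JUN.

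In the knockdown, EGR1, JUN, ATF3, FOSL2 and JUND fell and KLF6 rose, while FOS, FOSB, FOSL1 and JUNB did not pass the test. These 6 calls of 10 came from edgeR's fit with the replicate block, in which 13.5% of all tested genes passed (5.48% higher, 8.01% lower). The median log2 fold change was -0.18 over the 10 genes and 0.0001 over all tested genes. The 10 genes had been chosen with results of these libraries known, so the count is a description. In edgeR's fit without the block 0 of the 10 passed and 0 had an unadjusted p under 0.05. FOSL2 had the smallest adjusted p there (0.78). DESeq2 and limma-voom without the block also called 0 of the 10, though DESeq2 gave EGR1 no adjusted p. The knockdown groups did not overlap the control groups for 1 of the 10 genes, FOSL2, where 14.9% of all tested genes had groups that did not overlap (7.52% higher, 7.38% lower). For 7 of the 10 genes the change had the same direction in all 3 replicate pairs, as it had for 52.7% of all tested genes.

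**Figure D2:**
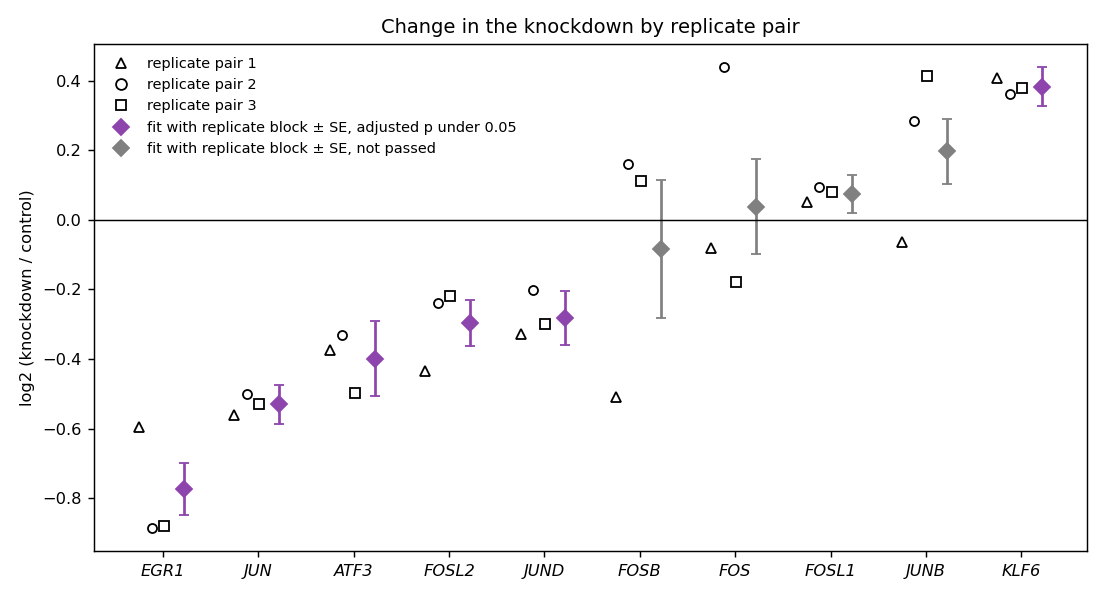
Log2 ratio of knockdown to control CPM in each replicate pair (open markers) and the log2 fold change of edgeR's fit with the replicate block with its SE (diamonds, purple where the adjusted p is under 0.05), by gene. The 3 pairs lie close together for JUN and KLF6, and apart, on both sides of 0, for FOS, FOSB and JUNB.

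EGR1 showed the largest change of the 10. EGR1 (ENSG00000120738, chromosome 5, 138465490 to 138469315, hg38) encodes a zinc finger activator induced by growth factor signalling. Its level was 562, 41.1 and 39.8 CPM in knockdown replicates 1 to 3, against 849, 75.9 and 73.3 CPM in control replicates 1 to 3. Within each replicate number the knockdown library was the lower, at 66.2%, 54.2% and 54.3% of its control, but the groups overlapped because replicate 1 of both was so high. With the replicate block the log2 fold change was -0.77 ± 0.075 (SE; edgeR, Benjamini-Hochberg adjusted p = 0.00078), and without it -0.63 ± 1.42 (adjusted p = 0.9999). Among the other EGR genes, EGR2 averaged 0.482 CPM in the knockdown and 1.21 CPM in the control, EGR3 averaged 0.590 CPM in the knockdown and 0.520 CPM in the control, and EGR4 had 0 counts in every library. None of these 3 reached the filter on low counts.

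Of the JUN family, JUN and JUND fell, and JUNB did not pass. JUN (ENSG00000177606, chromosome 1, 58780788 to 58784327), the founding member of AP-1, was at 157, 303 and 313 CPM in knockdown replicates 1 to 3, against 232, 429 and 451 CPM in control replicates 1 to 3. The 3 pairs were alike, with 67.8%, 70.6% and 69.3% of the control left in the knockdown, although the control replicate 1 lay below knockdown replicates 2 and 3. The log2 fold change of JUN was -0.53 ± 0.055 (SE; edgeR with the replicate block, adjusted p = 0.0011). JUND (ENSG00000130522, chromosome 19, 18279760 to 18281622), the JUN protein best known from resting cells, was at 75.6, 18.2 and 18.7 CPM in the knockdown, against 94.8, 20.9 and 23.01 CPM in the control. Its log2 fold change was -0.28 ± 0.078 (SE), close to the threshold (edgeR with the replicate block, adjusted p = 0.045), and it passed in 5 of 11 fits that held a replicate term or used replicates 2 and 3 alone (adjusted p 0.018 to 0.16). JUND missed the threshold when any 1 pair was left out (0.058 without pair 1, 0.12 without pair 2 and 0.16 without pair 3).

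JUNB, a JUN protein that can act against JUN on some promoters, differed between the pairs. JUNB (ENSG00000171223, chromosome 19, 12791496 to 12793315) was at 218, 59.1 and 58.6 CPM in knockdown replicates 1 to 3, against 228, 48.6 and 44.0 CPM in control replicates 1 to 3. The knockdown library of pair 1 was at 95.7% of its control, and those of pairs 2 and 3 were at 122% and 133%. The log2 fold change was 0.20 ± 0.093 (SE) with the replicate block (edgeR, adjusted p = 0.19), against 0.35 ± 0.070 (SE) in replicates 2 and 3 alone (edgeR, adjusted p = 7.1e-05), where JUNB passed. In that fit 3 of the 10 genes were higher (KLF6, JUNB and FOSL1) and 4 lower (EGR1, JUN, ATF3 and FOSL2), and 25.3% of all tested genes passed, 11.7% higher and 13.7% lower. Of the exonic bases of JUNB 14.2% are shared with HOOK2 on the opposite strand, and whether counting used strand was not given, so reads there could belong to either gene. HOOK2 was at 19.6, 7.63 and 9.87 CPM in the knockdown, against 12.1, 6.09 and 5.32 CPM in the control. HOOK2 itself rose, by a log2 fold change of 0.64 ± 0.146 (SE; edgeR with the replicate block, adjusted p = 0.023), and its part in the JUNB counts was not tested.

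The make-up of the JUN family transcripts, as shares of their summed FPKM within each library, held less JUN and more JUNB in the knockdown library of all 3 pairs. JUN made up 21.7%, 67.0% and 67.6% in knockdown replicates 1 to 3, against 27.1%, 76.2% and 77.7% in control replicates 1 to 3. JUNB made up 58.5%, 25.4% and 24.7% in the knockdown, against 51.8%, 16.8% and 14.7% in the control. The difference in the JUN share, knockdown minus control, was -5.43, -9.22 and -10.1 percentage points in pairs 1 to 3, while both groups ranged far more widely between replicate 1 and the others. Without tests of their own, these shares are descriptions. The summed JUN family level was 151 ± 39.1 FPKM in the knockdown and 187 ± 43.2 FPKM in the control (SD, n = 3 each).

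**Figure D3:**
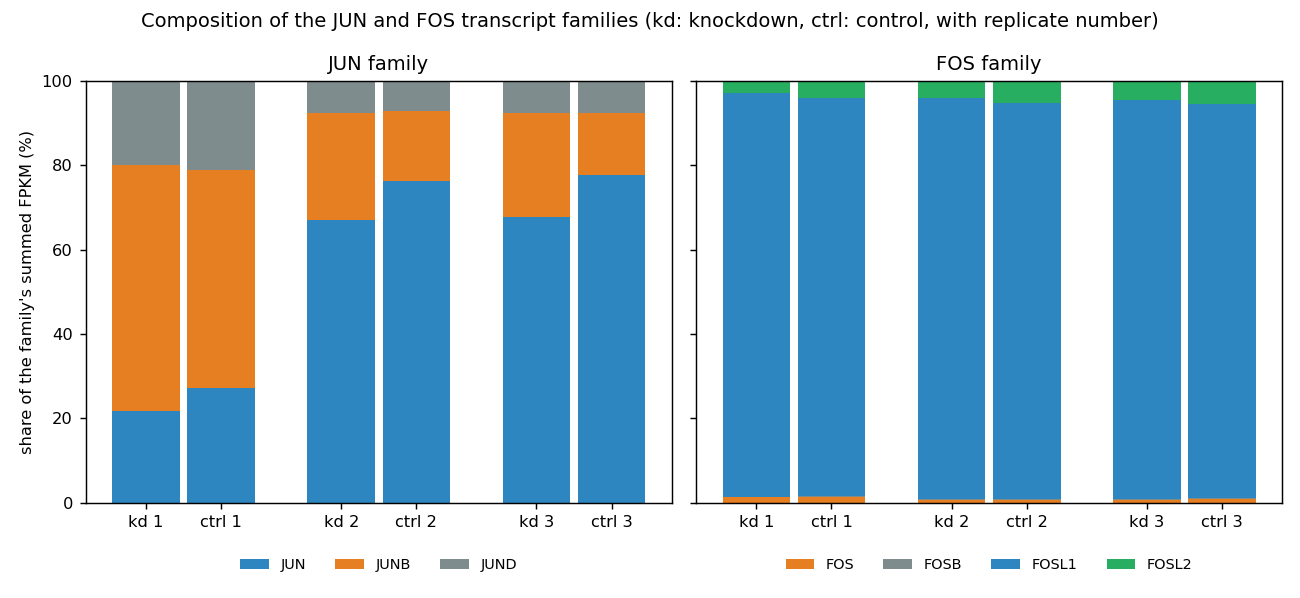
Share of each gene (percent, stacked to 100) in the summed FPKM of the JUN family (left panel) and of the FOS family (right panel) in each library, with knockdown (kd) left of control (ctrl) within each replicate number. The JUN share is lower in the knockdown bar of each pair, JUNB is the main transcript in replicate 1, and FOSL1 fills 93.6% to 95.7% of the FOS family in every library.

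Of the FOS family, FOSL2 fell, and FOSL1, FOS and FOSB did not pass. FOSL2 (ENSG00000075426, chromosome 2, 28392448 to 28417312), which encodes FRA-2, was at 127, 142 and 149 CPM in knockdown replicates 1 to 3, against 171, 168 and 173 CPM in control replicates 1 to 3. Every knockdown library lay below every control library. FOSL2 hardly differed between replicate numbers in the control, while knockdown replicate 1 was at 0.869 of the mean of knockdown replicates 2 and 3. The fall was larger in pair 1, with FOSL2 at 74.0% of the control, against 84.8% and 85.9% in pairs 2 and 3. Its log2 fold change was -0.30 ± 0.066 (SE; edgeR with the replicate block, adjusted p = 0.022), and it missed the threshold without pair 2 (adjusted p = 0.10). FOSL1 (ENSG00000175592, chromosome 11, 65892049 to 65900573) was at 1109, 867 and 841 CPM in the knockdown, against 1071, 813 and 795 CPM in the control. It was at 104% to 107% of the control in the 3 pairs, a log2 fold change of 0.07 ± 0.053 (SE; edgeR with the replicate block, adjusted p = 0.39), and it passed in replicates 2 and 3 alone (adjusted p = 0.031). Since FOSL1 is so abundant, the FOS family as a sum was at 513 ± 66.2 FPKM in the knockdown and 501 ± 77.1 FPKM in the control (SD, n = 3 each).

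FOS and FOSB, the members best known for strong and brief induction, were low and showed no common direction. FOS (ENSG00000170345, chromosome 14, 75278774 to 75282230) was at 25.4, 11.03 and 10.3 CPM in the knockdown, against 26.9, 8.14 and 11.6 CPM in the control, with a log2 fold change of 0.04 ± 0.135 (SE; edgeR with the replicate block, adjusted p = 0.88). FOSB (ENSG00000125740, chromosome 19, 45467995 to 45475179) was at 4.72, 5.45 and 5.07 CPM in the knockdown, against 6.72, 4.88 and 4.69 CPM in the control, with a log2 fold change of -0.08 ± 0.197 (SE; edgeR with the replicate block, adjusted p = 0.81). Their pairs lay on both sides of 0, and FOS had 115 to 392 counts per library.

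ATF3 fell and KLF6 rose. ATF3 (ENSG00000162772, chromosome 1, 212565334 to 212620777), a stress-induced leucine zipper repressor, was at 19.9, 9.45 and 9.05 CPM in knockdown replicates 1 to 3, against 25.8, 11.9 and 12.8 CPM in control replicates 1 to 3. It was at 77.1%, 79.5% and 70.9% of the control within the pairs, a log2 fold change of -0.40 ± 0.108 (SE; edgeR with the replicate block, adjusted p = 0.042), and passed in 7 of the 11 fits with a replicate term or with replicates 2 and 3 alone. With pair 2 left out ATF3 missed the threshold (edgeR adjusted p = 0.13), as it did with pair 3 left out (0.18). KLF6 (ENSG00000067082, chromosome 10, 3775996 to 3785281), a zinc finger factor described as a growth suppressor in several tumours, was at 357, 199 and 202 CPM in the knockdown, against 269, 155 and 156 CPM in the control. In each pair the knockdown library was the higher, at 133%, 128% and 130% of its control. The log2 fold change of KLF6 was 0.38 ± 0.056 (SE; edgeR with the replicate block, adjusted p = 0.0048). EGR1, JUN and KLF6 passed in all 11 of those fits, and in each of them EGR1 and JUN were lower and KLF6 higher in the knockdown. The KLF6 call was close to the threshold with pair 2 left out (edgeR with the replicate block, adjusted p = 0.048).

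The sequence before the RefSeq start is shown for EGR1, the gene with the largest fall, for JUND, which also fell, and for KLF6, the gene that rose. Windows were the 250 bases before that start (GRCh38.p14), and only bases outside the gene as counted are printed, since RefSeq and the counted gene model can start at different places. The runs are 5′ to 3′ on the strand of the gene, at chr5:138465229-138465478 on the plus strand for EGR1, chr19:18281623-18281872 on the minus strand for JUND and chr10:3785282-3785459 on the minus strand for KLF6, where 72 of the 250 bases lie inside the gene and are left out. Capitals mark matches, on either strand, to the motifs searched: the AP-1 site TGANTCA, the CRE-like site TGACNTCA, the CArG box of serum response factor, the TATA box TATAAA, the EGR site GCGNGGGCG and the CCAAT box CCAAT. No matches in these 3 windows overlap each other.
EGR1: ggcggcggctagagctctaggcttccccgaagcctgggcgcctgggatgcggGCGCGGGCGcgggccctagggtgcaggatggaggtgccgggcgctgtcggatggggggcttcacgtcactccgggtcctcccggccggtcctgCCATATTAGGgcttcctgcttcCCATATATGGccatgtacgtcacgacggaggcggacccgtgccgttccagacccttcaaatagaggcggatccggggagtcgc
JUND: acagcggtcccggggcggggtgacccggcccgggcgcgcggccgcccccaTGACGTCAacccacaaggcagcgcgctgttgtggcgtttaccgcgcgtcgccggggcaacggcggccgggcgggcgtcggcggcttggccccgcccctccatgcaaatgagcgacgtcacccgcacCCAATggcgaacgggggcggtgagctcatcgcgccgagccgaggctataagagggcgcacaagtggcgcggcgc
KLF6: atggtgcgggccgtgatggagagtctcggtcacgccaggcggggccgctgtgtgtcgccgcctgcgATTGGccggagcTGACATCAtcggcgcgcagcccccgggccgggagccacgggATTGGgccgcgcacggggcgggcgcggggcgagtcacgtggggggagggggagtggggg
EGR1 holds a pair of CArG boxes, from 105 to 96 and from 83 to 74 bases before the start, and an EGR site from 198 to 190 bases before it. JUND has the CRE-like letters TGACGTCA from 200 to 193 bases before its start, and KLF6 has TGACATCA from 172 to 165. The whole 250-base windows of JUN and FOSL2 lie inside those genes as counted, and JUN holds TGACATCA from 67 to 60 bases before its RefSeq start. RefSeq windows were found for 9 of the 10 genes, all but FOSL1, and ATF3 has more than 1. A gene was counted if any of its windows matched, among the 9 and among all 27305 gene symbols alike. The CRE-like site occurred in 4 of the 9 (ATF3, JUN, JUND and KLF6) and in 8.29% of all symbols. The CArG box occurred in 1 of the 9 (EGR1) and in 1.44% of all symbols. The TATA box occurred in 4 of the 9 (ATF3, FOS, FOSB and JUNB) against 13.05% of all symbols, in ATF3 only in a window inside the gene. The EGR site occurred in 2 (EGR1 and KLF6) against 10.06%, the CCAAT box in 5 against 37%, and the AP-1 site in 0 against 8.06%.

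Most of the 10 genes differed more between replicate 1 and the other replicates than between the groups. In edgeR's fit with group and replicate 1 as terms, a contrast chosen after the data were seen, 7 of the 10 were higher in replicate 1 than in replicates 2 and 3 and 1 was lower, where 31.6% of all tested genes were higher and 30.2% lower. EGR1 was 13.9-fold higher in replicate 1 than in the mean of replicates 2 and 3 in the knockdown and 11.4-fold higher in the control, a log2 fold change of 3.65 ± 0.06 (SE; edgeR adjusted p = 2.9e-12). JUNB was 3.70-fold higher in the knockdown and 4.93-fold in the control, and JUND was 4.10-fold higher in the knockdown and 4.32-fold in the control. FOS, ATF3, KLF6 and FOSL1 were higher by log2 fold changes of 1.34, 1.08, 0.81 and 0.40. JUN alone was lower, at 0.510 of the mean of replicates 2 and 3 in the knockdown and 0.527 in the control. FOSB (0.18 ± 0.20, edgeR adjusted p = 0.45) and FOSL2 (-0.10 ± 0.06, edgeR adjusted p = 0.20) did not pass. RNA was extracted with either of 2 kits, per the labels, but which library used which was not given, so the part of the kit in this difference was not tested.

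**Figure D4:**
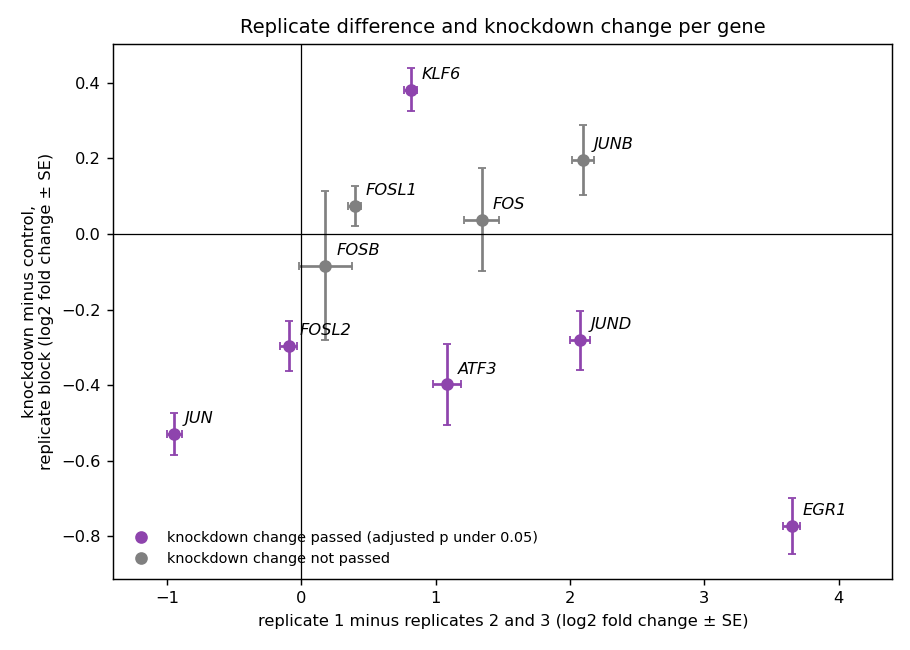
For each gene, the log2 fold change of replicate 1 against replicates 2 and 3 (horizontal axis) and of knockdown against control with the replicate block (vertical axis), with SE bars on both, purple where the knockdown change passed an adjusted p of 0.05. EGR1 lies farthest right at 3.65 and lowest at -0.77, JUN is lower on both axes, and KLF6 is higher on both.

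The change in pair 1 was set against that in pairs 2 and 3, and 2 of the 10 genes passed. Pair 1 is 1 library per group, so the test takes its spread from replicates 2 and 3 and assumes that replicate 1 varies like them. For EGR1 the fall was smaller in pair 1, by 0.29 ± 0.074 on the log2 scale (SE; edgeR interaction, adjusted p = 0.0040), and for JUNB the change in pair 1 was lower than in the others (-0.41 ± 0.089, SE; edgeR interaction, adjusted p = 0.00033). Of all tested genes 13% passed this test (5.06% positive, 7.96% negative), which was added after the data were seen. NELFCD was at 31.5% of its control in pair 1, against 42.4% and 48.2% in pairs 2 and 3.

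Most of the 10 are short genes. In the GENCODE 29 transcript numbered 201, JUN, JUNB and JUND have a single exon, EGR1 has 2 exons and KLF6 has 3. FOS, FOSB, FOSL1, FOSL2 and ATF3 have 4 each in that transcript. Other transcripts of a gene can differ, as the 7 of KLF6 do, with 2 to 4 exons. JUNB spans 1820 bases, JUND 1863, FOS 3457, JUN 3540 and EGR1 3826, against a median of 33976 bases over the tested protein-coding genes. Only 1.05% of those genes are shorter than JUNB and 4.93% are shorter than EGR1. FOSL2 spans 24865 bases and ATF3, the longest, 55444. Of these 5 shortest, JUN, JUND and EGR1 fell and JUNB and FOS did not pass. Of the longer ones, FOSL2 and ATF3 fell, KLF6 rose, and FOSL1 and FOSB did not pass. KLF6 spans 9286 bases. JUNB, JUND and FOSB lie on chromosome 19 but megabases apart.

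The genes with the most similar pattern over the 6 libraries were sought by the root mean square difference of log2 CPM, each gene centred on its own mean. For JUN the nearest of 9091 protein-coding genes at 10 CPM or more were the ER co-chaperone DNAJB11 (0.079 log2), the zinc finger gene ZNF714 (0.085) and the transcription factor SOX7 (0.085). For KLF6 they were ANKRD18A (0.036), the kinase RIOK3 (0.050) and the mitochondrial thymidine kinase TK2 (0.061). For EGR1 the closest was the interferon-induced exonuclease ISG20 (0.29 log2), with EGR1 itself varying more widely, by a root mean square of 1.77 log2 around its mean against 0.52 for JUN and 0.43 for KLF6. Every one of these distances is a description of 6 libraries that part by replicate number.

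Other immediate early genes changed in both directions. Of 30 listed, 26 were tested, 4 fell and 1 rose in edgeR's fit with the replicate block, with a median log2 fold change of -0.11. Over all tested genes 8.01% fell and 5.48% rose in that fit, which is the background for this list and the 3 that follow, and no list was tested as a set. The small GTPase gene RHOB fell, at 5.08 ± 2.0 CPM in the knockdown and 11.2 ± 0.644 CPM in the control (SD, n = 3 each), a log2 fold change of -1.18 (edgeR with the replicate block, adjusted p = 0.0073). The stress gene GADD45B fell by 0.43, and the zinc finger gene KLF4 by 0.27 on the log2 scale, as did the survival gene MCL1 by 0.23, named after its value was seen. MYC rose, at 404, 354 and 380 CPM in the knockdown, against 283, 293 and 303 CPM in the control, a log2 fold change of 0.37 ± 0.065 (SE; edgeR with the replicate block, adjusted p = 0.0091). The YAP targets CYR61 (-0.18) and CTGF (0.44) did not pass, and 8.34% of the exonic bases of CTGF are shared with another gene.

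Of 18 leucine zipper genes that can pair with AP-1 proteins or related factors, 16 were tested, 3 fell and 0 rose, with a median of -0.15 (edgeR with the replicate block; without it 0 passed and 1 had an unadjusted p under 0.05). JDP2, a repressor that pairs with JUN, fell by 0.65, CREB5 by 0.50 and CREB1 by 0.47 on the log2 scale, while ATF4 (-0.15) and MAFF (-0.20) did not pass. Of 23 upstream kinases, SRF cofactors and EGR corepressors, all tested, 5 fell and 0 rose, with a median of -0.10. The kinase ERK1 gene MAPK3 fell, at 14.5 ± 3.38 CPM in the knockdown and 34.0 ± 12.2 CPM in the control (SD, n = 3 each), by 1.21 on the log2 scale, and the kinase MAP2K2 (0.03) did not pass. The S6 kinase RPS6KA1 fell by 0.90 and the EGR corepressor NAB1 by 0.47. Chosen after their values were seen, the SRF partner ELK3 fell by 0.39 and SRF itself by 0.24, the SRF call being at the threshold (edgeR with the replicate block, adjusted p = 0.0496).

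Of 23 genes known in the literature as AP-1 targets, 17 were tested, 7 fell and 4 rose, with a median of -0.36 (edgeR with the replicate block). Several of them were already known to change in these libraries when the list was drawn up, so the count carries no independent weight. The serpin SERPINB2 (4.05), the peptide hormone ADM (1.22) and the chemokine CXCL8 (0.73) rose. The matrix protease MMP2 was low and uneven, at 3.92, 0.0606 and 0.137 CPM in knockdown replicates 1 to 3, against 8.43, 2.19 and 1.13 CPM in control replicates 1 to 3. MMP2 fell by 1.91 ± 0.497 on the log2 scale (SE; edgeR with the replicate block, adjusted p = 0.038), though the groups overlapped. Cyclin D1 CCND1 fell by 0.96 on the log2 scale, CCND1 being at 386 ± 134 CPM in the knockdown and 722 ± 113 CPM in the control (SD, n = 3 each). The adhesion receptor CD44 (0.10) and the protease inhibitor TIMP1 (-0.26) did not pass. Of the exonic bases of SERPINB2 19.9% and of CCND1 10.3% are shared with another gene, and reads there could come from either gene.

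**Figure D5:**
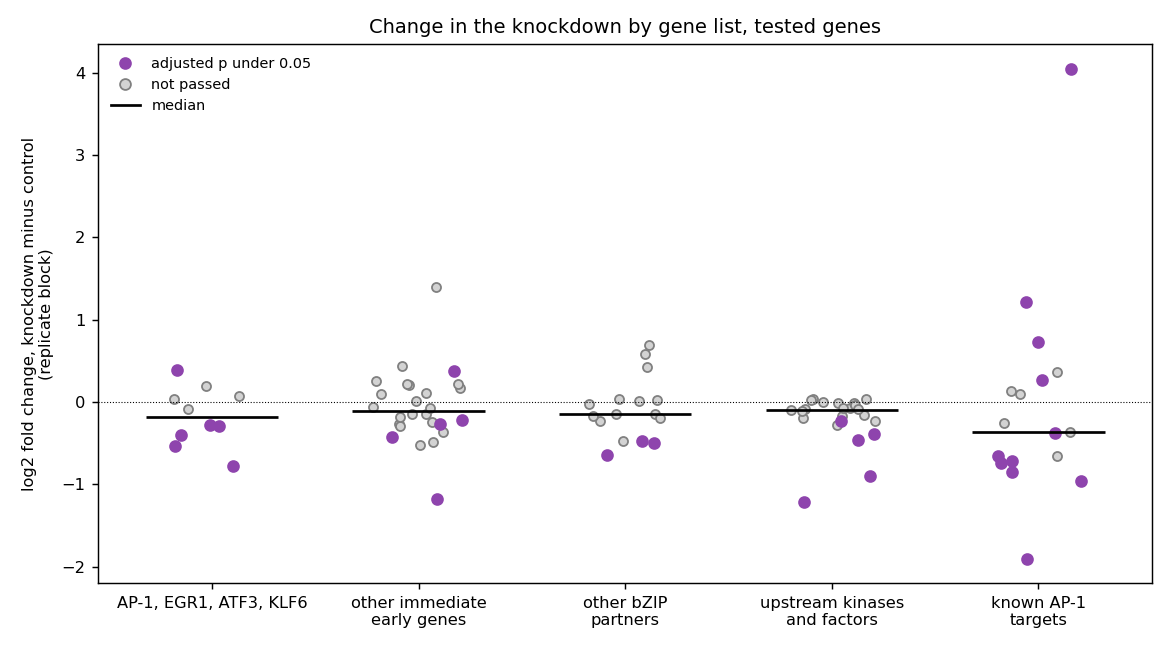
Log2 fold change of knockdown against control, with the replicate block, of each tested gene (points, purple where the adjusted p is under 0.05) in the 10 genes described here and in the 4 other lists, with the list median as a line. Medians lie between -0.36 for known AP-1 targets and -0.10 for upstream kinases and factors, and SERPINB2 stands alone at 4.05.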

How the data were processed

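Gene expression was measured by RNA-seq in 3 knockdown and 3 control libraries, grouped by their titles. The authors deposited raw counts per gene and FPKM, per the file headers. Per the submitters' processing notes, the genome build is hg38, and the aligner, counter and strand setting are not given in the sources used here. Deposited FPKM was read as the count divided by gene length and by 1 constant per library. That constant was taken as a median over well-counted genes, and equality was not shown for each value. FPKM served for levels per length, family shares and marker sums, and was not tested between groups.

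Counts were tested with edgeR 4.0.16 (R 4.3.3): filterByExpr, TMM scaling, robust quasi-likelihood F-tests, and Benjamini-Hochberg adjustment over all 14844 genes at 0.05. CPM used TMM-scaled library sizes. SE was the absolute log2 fold change divided by the square root of F. The main design had no replicate term, and the replicate block was an alternative. Same-numbered libraries deviated together (correlations across genes 0.838, 0.629 and 0.616), which came from the data, not the labels. The numbers were therefore taken to pair the samples. As replicate 1 stood apart in both groups, replicates 2 and 3 would deviate together under either numbering. The correlations thus cannot show that 2 pairs with 2 and 3 with 3, and differently numbered libraries were not compared. The fits were tested on simulated data. DESeq2 1.42.0, limma 3.58.1 (voom), other scalings, no filter and left-out libraries were tried. Depth was 14306733 to 16656630 counts per library.

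The members and gene lists were chosen with earlier results of these data known. Named genes were all members, NELFCD and, per list, up to 3 passing genes with the largest change each way and up to 2 of the highest expressed that did not pass; some genes this rule names are not reported here. Gene models came from GENCODE 29, whose coordinates and lengths equalled the deposited ones for the members.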

Additional observations from a re-analysis of the deposited data

Results flagged for a closer look

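EGR1 and JUNB passed edgeR's test of the change in replicate pair 1 against that in pairs 2 and 3. The test was added after the data were seen. Of all tested genes 13% passed it (5.06% positive, 7.96% negative), so passing was not particular to EGR1 and JUNB. Pair 1 has 1 library per group, so the p-values take their spread from replicates 2 and 3 and assume that replicate 1 varies like them. For EGR1 the log2 change in pair 1 minus that in pairs 2 and 3 was 0.29 ± 0.074 (SE, edgeR interaction, adjusted p = 0.0040), with changes of -0.60, -0.88 and -0.88 in pairs 1 to 3, all downward. For JUNB it was -0.41 ± 0.089 (SE, edgeR interaction, adjusted p = 0.00033), with changes of -0.06, 0.28 and 0.41. Both differences passed under RLE scaling (0.28 and -0.42) and under upper-quartile scaling (0.33 and -0.37). NELFCD itself was lower in pair 1 (31.5% of control) than in pairs 2 and 3 (42.4% and 48.2%), and its part in these differences was not tested.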

How the results depend on the processing

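Whether the fit held a replicate term, or left out replicate 1 of both groups, decided nearly every call. With neither, edgeR called 0 genes and 0 of the 10 members, and limma-voom 0 genes. DESeq2 with neither called 50 genes higher and 111 lower, none of them a member, with NELFCD at -1.28. EGR1 had no adjusted p in that DESeq2 fit. With the replicate block edgeR called 813 genes higher and 1189 lower, among them 1 member higher and 5 lower, with NELFCD at a log2 fold change of -1.30. With replicate 1 as a batch term the counts were 1379 and 1738 (members 1 and 5, NELFCD -1.30), and with replicates 2 and 3 only 1732 and 2026 (members 3 and 4, NELFCD -1.15). With the replicate block the counts were 446 and 912 by DESeq2 (members 1 and 3, NELFCD -1.32), 854 and 1256 by limma-voom (1 and 5, -1.29), 771 and 1269 under RLE scaling (1 and 5, -1.31), 1198 and 986 under upper-quartile scaling (1 and 3, -1.26), which turned the split towards higher calls, and 1118 and 1770 without the filter (1 and 5, -1.32). Leaving out 1 pair with the block gave 1877 genes higher and 2213 lower without pair 1 (members 3 and 4, NELFCD -1.15), 307 and 625 without pair 2 (1 and 2, -1.34) and 650 and 1110 without pair 3 (1 and 3, -1.45). Leaving out 1 library without the block gave 0 members in each case and NELFCD from -1.45 to -1.03 over all such fits. JUN, KLF6 and FOSL2 kept their direction in every fit run. Without the block FOS turned to -0.0083 in DESeq2, -0.0084 under RLE scaling and -0.019 without the filter. With the block FOS turned to -0.13 without pair 2 and FOSB to 0.13 without pair 1, and FOSB was 0.14 with replicates 2 and 3 only. Leaving out 1 library without the block gave FOS from -0.55 to 0.65, FOSB from -0.19 to 0.084, FOSL1 from -0.069 to 0.22, JUNB from -0.86 to 1.27, JUND from -1.33 to 0.77, ATF3 from -0.87 to 0.051 and EGR1 from -3.05 to 1.52. The difference between pair 1 and pairs 2 and 3 turned to 0.0087 for FOSL1 under upper-quartile scaling. The cause of these changes was not tested. Residual degrees of freedom, 2 with the block and 4 without, and 69 to 98 counts for FOSB limit the precision.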
